A study of Mus musculus with 21 samples.

Results

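Monocyte-derived microglia (MLC), cells that had grown in the mouse brain from monocytes transplanted soon after birth, were compared after seizures and after saline. Expression had been measured by RNA-seq of cells sorted from the brains of adult mice, with 6 MLC libraries taken 5 days after seizures induced with kainic acid, an agonist of a class of glutamate receptors, and 3 MLC libraries after saline. These 9 libraries were all the MLC libraries among the 21 of the study, and every gene that passed the filter on low counts was compared, 18867 of the 57180 genes in the table. All MLC had the genotype Osb-GFP, and the labels give neither the genotype of the host mice nor the number of animals behind a library. The other libraries held transplanted microglia of the genotype Osb-GFP (MG, 4 seizure and 3 saline) and microglia of CX3CR1-CreER+/-; CSF1R fl/fl mice without a transplant, in which a Cre driven from the Cx3cr1 locus acts on the receptor gene Csf1r (NoTx, 3 seizure and 2 saline). Every seizure library was labelled batch 1 and every saline library batch 2, so that in each difference given here treatment and batch cannot be told apart.

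Microglia are macrophages that seed the brain before birth, and they follow neuronal activity through receptors for nucleotides and for the neuronal chemokine fractalkine. Monocytes that settle in an emptied niche take on much of the microglial programme, yet they are known to keep genes of their own, such as Ms4a7 and Clec12a, and to lack the transcription factor Sall1. After a seizure, brain macrophages are known to gather around active and dying neurons, to engulf debris and to release cytokines and growth factors. The question put to these libraries was whether the MLC differed 5 days after the seizures from MLC of mice given saline.

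The cells carried the markers of their label. Levels are given in CPM, the count of a gene scaled to a common library size, which compares libraries for 1 gene and not genes with each other. Ms4a7, a tetraspanning membrane protein of brain macrophages other than microglia, ran from 1684 to 4786 CPM (median 3025) in seizure MLC and had 2859, 1985 and 1645 CPM in saline MLC, against at most 15.3 CPM in any MG library. Clec12a, an inhibitory lectin receptor, had at least 399 CPM in every MLC library and at most 0.932 CPM in MG. Sall1, the transcription factor that maintains microglial identity, ran from 1.67 to 10.02 CPM (median 4.19) in seizure MLC and had 2.54, 0.351 and 1.58 CPM in saline MLC, and in MG it had at least 194 CPM. The 14 general markers of brain macrophages summed to between 18397 and 35977 CPM in the seizure libraries and between 27618 and 49388 CPM in the saline libraries, with no marker at 0 in any of them.

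Markers of other cells were low but not alike in all libraries. The sum of 13 neuronal markers was 157 CPM in seizure replicate 6, 81.8 CPM in seizure replicate 3 and between 3.79 and 16.05 CPM in the other seizure libraries, against 10.9 to 21.5 CPM in the saline libraries. The neuronal nuclear protein Rbfox3 was at most 1.06 CPM in seizure and 1.04 CPM in saline libraries, and 1 to 8 of these 13 genes were at 0 per seizure library and 0 to 5 per saline library. Ly6c2, the surface protein of newly arrived blood monocytes, ran from 0 to 1.55 CPM (median 0.0148) in the seizure libraries and had 0.0434, 0 and 0.0565 CPM in the saline libraries, and the 14 markers of blood monocytes and dendritic cells summed to 4.6 to 19.3 CPM in seizure and 10.96 to 15.8 CPM in saline libraries. The sums overlapped, but the library medians of those markers did not, at -0.98 to -0.18 in seizure and -0.13 to 0.26 in saline libraries on the log2 scale from the saline mean. Of these 14 genes, 2 to 8 were at 0 per seizure library and 0 to 3 per saline library. Their median log2 fold change was -0.03, with 7 above 0. The library medians of 9 oligodendrocyte markers did not overlap either, at -1.22 to -0.40 in seizure and -0.38 to 0.26 in saline libraries (median log2 fold change -1.39, and -0.61 without saline replicate 3). Of these 9 genes, 2 to 4 were at 0 per seizure library and 1 to 3 per saline library. The 12 astrocyte markers summed to 211 CPM in seizure replicate 6, 161 CPM in seizure replicate 3 and at most 77.8 CPM in the other seizure libraries, against 50.1 to 67.6 CPM in saline libraries. Seizure replicates 3 and 6, highest for neuronal and astrocyte markers, both bear the code 11b in their names. With both left out, the median log2 fold change went from 0.98 to -1.77 for neuronal markers and from 0.89 to -0.19 for astrocyte markers. The 6 B cell markers, mostly Ighm, summed to 230.3 to 636 CPM in seizure and 603 to 890 CPM in saline libraries. Haemoglobin Hbb-bs ran from 3.48 to 243 CPM (median 50.7) in seizure and had 139, 0.566 and 20.3 CPM in saline libraries. The 8 neutrophil markers summed to 22.5 to 141 CPM in seizure and 163 to 470 CPM in saline libraries, nearly all of it Csf3r. The other neutrophil markers did not follow the sum: 6 of the 8 log2 fold changes were above 0, with a median of 1.23, and S100a8 stayed at or below 1.89 CPM throughout. The part of these cells in the results below was not tested, and in sorted bulk samples fewer cells of a type and less RNA per cell cannot be told apart.

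The libraries of the groups were not alike in depth or complexity. Seizure libraries held about 6571260 to 37494200 counts and saline libraries about 36765100 to 50316200 counts. When each was thinned to the smallest total, 12817 to 15435 genes were detected in the seizure libraries and 15341 to 17996 in the saline libraries, with means of 14443 ± 975 and 16488 ± 1364 (SD, n = 6 and 3; exact two-sided permutation test over the 9 libraries, p = 0.0476 with 0.0238 the smallest possible, and 0.0952 after Benjamini-Hochberg adjustment over 4 library measures). Mitochondrially encoded transcripts took 0.661% to 2.51% of the counts in seizure libraries and 0.612% to 0.842% in saline libraries (adjusted p = 0.0952). Log CPM correlated between libraries of the seizure group with r from 0.785 to 0.879 and within the saline group from 0.909 to 0.922, and across the groups from 0.771 to 0.889. Seizure replicates 3 and 6 bear the code 11b and otherwise the same codes as replicates 2 and 4, in that order. Those pairs of the same code correlated at 0.834 and 0.870, inside the range of the other pairs, and whether they share an animal is not given. All 9 libraries held Y-linked transcripts, 391 to 1428 CPM in sum, with Xist at 0.452 to 7.48 CPM, although 3 seizure libraries bear the letter F in their codes.

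No gene passed the test. Of the 18867 genes, 0 (0%) had an adjusted p under 0.05 in the quasi-likelihood test of edgeR, 0 higher and 0 lower after seizures, and the smallest adjusted p was 0.25. At an unadjusted p under 0.05 there were 2236 genes (11.9%), of which 653 (3.46%) were higher and 1583 (8.39%) lower in seizure MLC. That tilt towards lower genes was smaller with every library thinned to 1 depth (772 higher, 991 lower) and was not seen in DESeq2 (1142 higher, 1070 lower). The 6 seizure and 3 saline values did not overlap for 1184 genes (6.28%), with seizure libraries above for 232 (1.23%) and below for 952 (5.05%). The log2 fold change was above 0 for 46.7% of genes and its median over all genes was -0.06. Other tools called some genes: limma-voom with quality weights put 6 higher (0.0318%) and 90 lower (0.477%) past an adjusted p of 0.05, and DESeq2 put 60 higher (0.355%) and 70 lower (0.415%) among the 16887 genes for which it gave one. The 2 tools shared 25 of these genes, 26.0% of the limma-voom calls and 19.2% of the DESeq2 calls. Only 9 of the 96 limma-voom calls and 30 of the 130 DESeq2 calls were abundant (4 or more on average in log2 CPM), and 58 of the DESeq2 calls had a group at 0.

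**Figure D1:**
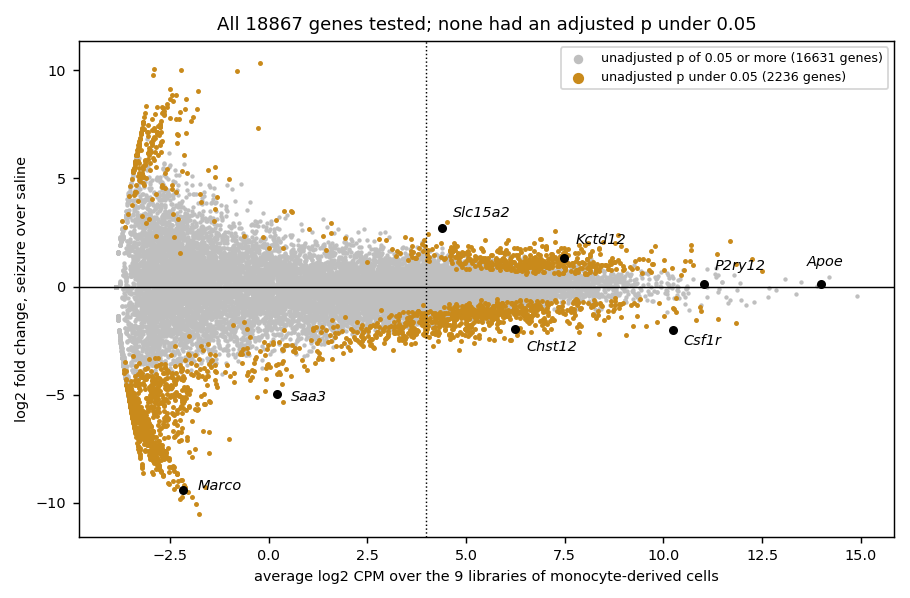
Each point is 1 of the 18867 genes tested in MLC, placed by its average log2 CPM over the 9 libraries (x axis) and its log2 fold change of seizure over saline (y axis). The 2236 orange genes had an unadjusted p under 0.05, none had an adjusted p under 0.05, the dotted line marks an average log2 CPM of 4, and fold changes spread widely to its left, where counts are few.

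What the comparison could resolve differed between genes. Among the 5967 abundant genes the median standard error (SE) of the log2 fold change was 0.45, and 1253 of them (21%) had a 95% confidence interval (CI) that lay wholly within a 2-fold change either way. Another 8 had an interval wholly beyond 2-fold, although none of them passed the adjusted threshold, and the intervals of the other abundant genes reached past 2-fold on at least 1 side. The edgeR p values and SEs rest on the spread within groups over all 21 libraries of the study, not over the MLC libraries alone. Each library was labelled a biological replicate. Some seizure MLC libraries share a code with another, so whether all libraries are independent is not known.

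Some microglial identity genes had close means in the groups, others had lower or higher means after seizures, and none passed the test. P2ry12, the ADP receptor through which microglia sense injured and active neurons, ran from 1706 to 2584 CPM (median 2173) in seizure MLC and had 2441, 1634 and 1934 CPM in saline MLC. Its log2 fold change was 0.11 (95% CI from -0.37 to 0.59), so that a change beyond 2-fold lay outside the interval. With the GC-content trend described below removed it was -0.49, which is outside that interval too. Cst3, the protease inhibitor cystatin C, averaged 9483 ± 1788 CPM in seizure and 7496 ± 1715 CPM in saline libraries (SD, n = 6 and 3). Its log2 fold change was 0.34 (CI from -0.25 to 0.93), and with that trend removed it was 1.08, outside the interval. The intervals do not cover such a trend between libraries.

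Csf1r, the receptor on which brain macrophages depend for survival, ran from 392 to 1994 CPM (median 796) in seizure MLC, against 2210, 1389 and 7679 CPM in saline MLC. The groups overlapped, since seizure replicate 2 lay above saline replicate 2, and saline replicate 3 stood far above the rest. The log2 fold change was -2.02 (SE 0.60) and the edgeR adjusted p was 0.304. Cx3cr1, the fractalkine receptor, ran from 831 to 2968 CPM (median 1148) in seizure and had 2522, 2180 and 7946 CPM in saline libraries (log2 fold change -1.55, edgeR adjusted p = 0.304). Tmem119, a microglial membrane protein, showed the same picture, with 180.4 to 1763 CPM (median 442) in seizure and 1848, 1180 and 3824 CPM in saline libraries and a log2 fold change of -1.82 (SE 0.71). In all 3 genes seizure replicates 4, 5 and 6 were the lowest of the 9 libraries. P2ry13, a sister receptor of P2ry12, averaged 1005 ± 325 CPM in seizure and 1984 ± 612 CPM in saline libraries (log2 fold change -0.98, edgeR adjusted p = 0.304). Sall1 went the other way at the low levels given above, where the groups overlapped (log2 fold change 1.67, SE 0.52, edgeR adjusted p = 0.304). Over all settings its log2 fold change ran from 1.09 to 2.31. Of the 29 homeostatic microglia genes tested, 3 were higher and 9 lower at an unadjusted p under 0.05. For this and each later list, the shares over all genes tested were 3.46% higher and 8.39% lower. Of the 29 log2 fold changes 12 were above 0 (the highest at 1.78) and 17 below 0, and their median was -0.24, beside -0.06 over all genes.

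**Figure D2:**
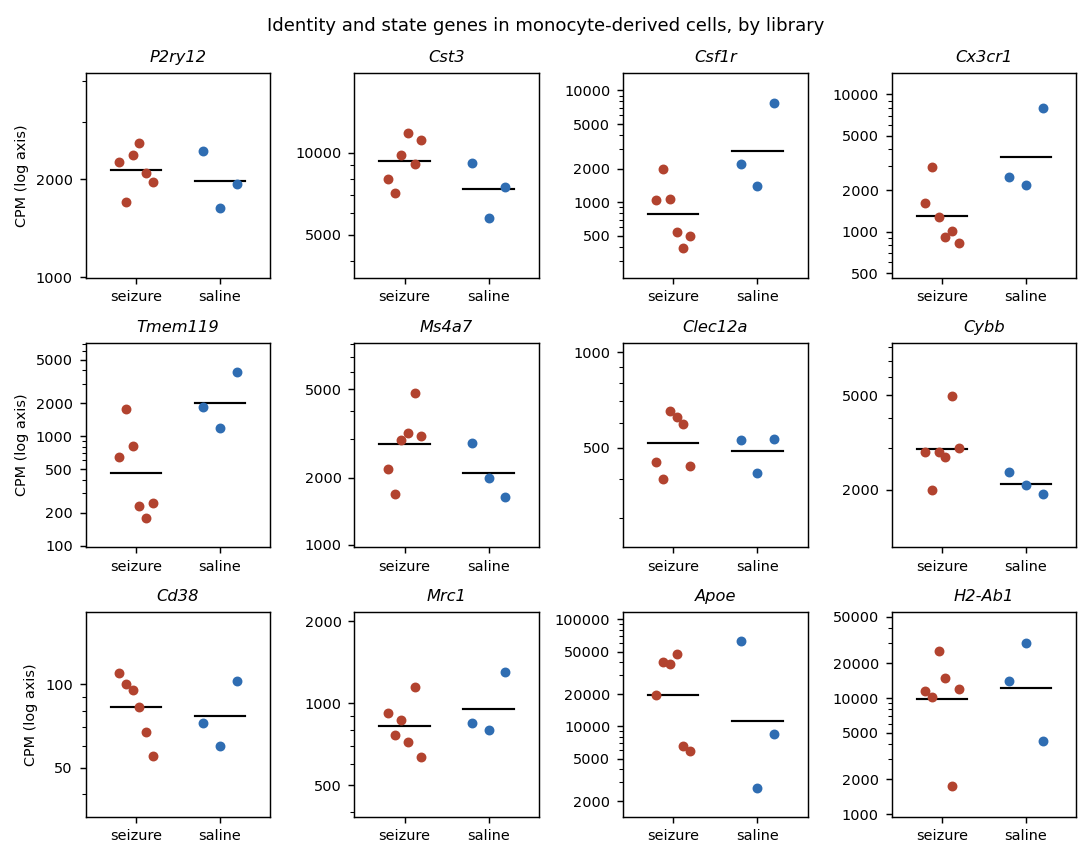
CPM on a log axis of 12 identity and state genes in each library of MLC, seizure (6 libraries, red) left of saline (3 libraries, blue), with a bar at the geometric mean. P2ry12 lies between 1634 and 2584 CPM in all 9 libraries, whereas Csf1r, Cx3cr1 and Tmem119 are lowest in 3 of the seizure libraries, and Apoe and H2-Ab1 spread widely within both groups.

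None of the 30 genes listed as monocyte-derived macrophage genes passed the test (median log2 fold change 0.11, 17 above 0, 0 higher and 1 lower at an unadjusted p under 0.05). Ms4a7 had a log2 fold change of 0.46 (CI from -0.65 to 1.57) and Clec12a of 0.10 (CI from -0.85 to 1.04). Cybb, the membrane chain of the oxidase that makes superoxide in phagocytes, ran from 1993 to 4961 CPM (median 2892) in seizure and had 2373, 2093 and 1923 CPM in saline libraries. Its log2 fold change was 0.53 (CI from -0.26 to 1.32). Cd38, an enzyme that consumes NAD, averaged 85.2 ± 20.99 CPM in seizure and 78.6 ± 22.3 CPM in saline libraries. Lyz2, the lysozyme of macrophages, averaged 7393 ± 2633 and 8245 ± 1345 CPM in seizure and saline libraries, and Mrc1, the mannose receptor of border macrophages, averaged 842 ± 180.4 and 979 ± 278 CPM. Among the 20 border macrophage genes the median log2 fold change was -0.36, with 14 below 0 and 1 lower at an unadjusted p under 0.05. That median ran from -0.68 without saline replicate 2 to -0.15 without saline replicate 1.

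Apoe, the lipid carrier that is prominent in activated and monocyte-derived macrophages, could not be resolved. It ran from 5939 to 47818 CPM (median 28985) in seizure libraries and had 62324, 2671 and 8570 CPM in saline libraries, with the highest and the lowest of the 9 values both in the saline group. The log2 fold change was 0.11 with a CI from -1.54 to 1.75. The 27 disease-associated microglia genes ran from -1.751 to 1.137 in log2 fold change with a median of -0.07, with 0 higher and 3 lower at an unadjusted p under 0.05, and the median was 0.04 under another scaling of the libraries.

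MHC class II genes, which present antigen to helper T cells, varied widely within both groups. H2-Ab1, the beta chain of a class II molecule, ran from 1747 to 25485 CPM (median 11628) in seizure and had 14027, 29714 and 4253 CPM in saline libraries (log2 fold change -0.34, CI from -2.06 to 1.37). Cd74, the invariant chain that escorts class II molecules, averaged 32978 ± 15670 CPM in seizure and 44852 ± 37398 CPM in saline libraries. Over the 13 class II genes the median per library ran from -1.84 to 0.50 on the log2 scale in seizure libraries and from -0.92 to 0.92 in saline libraries, measured from the saline mean, and the median log2 fold change was -0.51, which became 0.06 without saline replicate 2. At an unadjusted p under 0.05, 0 of the 13 were higher and 1 was lower. Of the 22 class I genes, 1 was higher and 4 lower at an unadjusted p under 0.05, beside 3.46% and 8.39% of all genes. H2-D1, a class I heavy chain with close relatives that can share its reads, averaged 1013 ± 755 CPM in seizure and 2284 ± 597 CPM in saline libraries (log2 fold change -1.17, edgeR adjusted p = 0.435), whereas its light chain B2m had a log2 fold change of -0.16 (CI from -0.84 to 0.51). Canx, a chaperone that folds class I chains, was the member that was higher, at 1947 to 23751 CPM (median 4003) in seizure libraries against 1851, 1750 and 1281 CPM in saline libraries (log2 fold change 2.10, edgeR adjusted p = 0.304). All 6 seizure values lay above all 3 saline values, and seizure replicate 5 was far above the rest. Without it the log2 fold change of Canx was 1.22.

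Interferon and cytokine genes had medians close to that of all genes. Of 40 type I interferon response genes, 0 had an unadjusted p under 0.05 and 22 had a log2 fold change above 0 (median 0.11, and -0.14 with the GC-content trend described below removed). Bst2, an interferon-induced membrane protein that tethers viruses, averaged 495 ± 89.5 CPM in seizure and 525 ± 42.3 CPM in saline libraries (CI of the log2 fold change from -0.64 to 0.48). Of 37 inflammatory cytokine and NF-kB genes, 1 was higher and 2 lower at an unadjusted p under 0.05, with a median of -0.10, which was 0.00 under another scaling of the libraries. The chemokine Ccl12, which draws monocytes, ran from 1822 to 4189 CPM (median 3274) in seizure and had 2447, 2849 and 820.2 CPM in saline libraries (log2 fold change 0.60, CI from -0.40 to 1.61). Tlr2, a receptor for microbial lipoproteins, averaged 369 ± 183 CPM in seizure and 660.3 ± 183 CPM in saline libraries (log2 fold change -0.84, edgeR adjusted p = 0.452). Il1b, Tnf and Il6, which were chosen after their values were seen, reached at most 19.3, 20.4 and 3.24 CPM in seizure libraries and 11.8, 31.6 and 0.0942 CPM in saline libraries.

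The complement chain C1qb had a lower mean after seizures, with a wide interval, and did not pass the test. C1qb, a chain of the first complement component that tags synapses and debris, ran from 696 to 7280 CPM (median 4017) in seizure and had 8221, 6694 and 8017 CPM in saline libraries (log2 fold change -0.86, CI from -1.76 to 0.04). Seizure replicate 5 held the lowest value. Fcgr3, an activating Fc receptor, had a log2 fold change of -0.09 (CI from -0.67 to 0.50) and C3ar1, the receptor for a complement fragment, of -0.28 (CI from -0.74 to 0.19). The 20 complement and Fc receptor genes had a median of -0.18. At an unadjusted p under 0.05, 1 was higher and 4 were lower, beside 3.46% and 8.39% of all genes.

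Zfp36, which destabilises cytokine messages, was the immediate early gene that stood apart. It ran from 48.4 to 202 CPM (median 71.1) in seizure MLC and had 216, 412 and 525 CPM in saline MLC, with no overlap. The log2 fold change was -2.08 (SE 0.59) and the edgeR adjusted p was 0.304. Klf6, Dusp6 and Btg2, also induced early by many stimuli, had log2 fold changes of -0.18, -0.47 and -0.64, with CIs that included 0. Over the 24 immediate early genes 2 were higher and 2 lower at an unadjusted p under 0.05 and the median was 0.13, which was 0.74 after the GC-content trend was removed and -0.16 in limma-voom.

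Among the 25 lists of functions and states, glycolysis and hypoxia genes had the lowest median, -0.998, with 21 of 25 log2 fold changes below 0. At an unadjusted p under 0.05 there were 2 higher (8%) and 7 lower (28%) genes, beside 3.46% and 8.39% of all genes. The libraries did not overlap for 1 higher (4%) and 5 lower (20%) genes, beside 1.23% and 5.05% of all genes. The median of the list per library ran from -2.33 to -0.28 in the seizure libraries and from -0.15 to 0.35 in the saline libraries, without overlap, and seizure replicate 5 was the lowest. Pkm, the pyruvate kinase that ends glycolysis, ran from 20.98 to 211 CPM (median 89.5) in seizure MLC and had 289, 229 and 381 CPM in saline MLC (log2 fold change -1.58, SE 0.58, edgeR adjusted p = 0.338). Eno1 and Gapdh, the enzymes of 2 other late steps, averaged 329 ± 214 and 64.3 ± 32.6 CPM in seizure libraries and 658 ± 108 and 132 ± 25.04 CPM in saline libraries. Both have processed copies in the genome that can take up reads, so their levels are uncertain. Hk2, the hexokinase of the first step, went the other way: it ran from 234 to 560.4 CPM (median 255) in seizure MLC and had 186, 204 and 214 CPM in saline MLC (log2 fold change 0.63, edgeR adjusted p = 0.41). Without seizure replicate 5, its highest library, the log2 fold change of Hk2 was 0.42. The 25 genes have a median GC content of 53.7%, and with the GC-content trend removed the list's median was -0.63. Without saline replicate 3 it was -0.61.

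Transcripts of the mitochondrial genome had the highest median of the 25 lists of functions and states, 0.95, with 14 of 15 log2 fold changes above 0. At an unadjusted p under 0.05, 7 of them were higher, beside 3.46% of all genes. mt-Co1, a subunit of the terminal respiratory oxidase, ran from 1099 to 4441 CPM (median 2175) in seizure and had 1206, 1003 and 869 CPM in saline libraries (log2 fold change 1.17, edgeR adjusted p = 0.304). Seizure replicate 2 lay among the saline values and seizure replicate 5 held the highest value. The groups overlapped for all 15 transcripts. Their median GC content is 36.0%, the list's median was 0.62 without seizure replicate 5 and 0.02 with the GC-content trend removed. The 38 subunits of oxidative phosphorylation encoded in the nucleus had a median of 0.19, and Sdhb, a subunit of succinate dehydrogenase, averaged 373 ± 101 CPM in seizure and 263 ± 68.8 CPM in saline libraries.

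Lysosomal genes had lower means after seizures in 30 of 39 cases (median -0.51), with 1 higher (2.56%) and 12 lower (30.8%) at an unadjusted p under 0.05, beside 3.46% and 8.39% of all genes. The 3 lower genes without overlap (7.69%) were a share near the 5.05% of all genes. Ctsd, the aspartic protease cathepsin D, ran from 692 to 6508 CPM (median 2656) in seizure MLC and had 7392, 5107 and 17508 CPM in saline MLC (log2 fold change -1.68, SE 0.57, edgeR adjusted p = 0.321). The groups overlapped, with saline replicate 3 highest and seizure replicate 5 lowest. Other lysosomal proteins of high level were closer together: the log2 fold change was 0.05 (CI from -0.48 to 0.57) for the protease Ctss, -0.08 (CI from -0.59 to 0.43) for the protease Ctsc and -0.01 (CI from -0.56 to 0.54) for the membrane glycoprotein Cd68. The list's library medians ran from -1.81 to -0.21 in seizure and from -0.27 to 0.23 in saline libraries, and the list's median was -0.27 without seizure replicate 5 and -0.31 without saline replicate 3.

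Iron-handling and migration genes had medians close to that of the lysosome. For 19 iron and heme genes the median was -0.54, with 0 higher and 3 lower at an unadjusted p under 0.05. Slc11a1, the metal transporter of the phagosome, was chosen after its values were seen. It ran from 29.8 to 145 CPM (median 87.9) in seizure MLC and had 257, 220.1 and 559.9 CPM in saline MLC, without overlap (log2 fold change -1.94, SE 0.52, edgeR adjusted p = 0.304). Ftl1, the light chain of ferritin, averaged 3977 ± 1997 CPM in seizure and 6052 ± 379 CPM in saline libraries (CI from -1.41 to 0.20), and its many copies in the genome leave that level uncertain. For 30 genes of axon guidance and migration the median was -0.52. At an unadjusted p under 0.05, 2 were higher and 8 lower, beside 3.46% and 8.39% of all genes. The list's library medians ran from -1.11 to -0.29 in seizure and from -0.22 to 0.34 in saline libraries. This was the other list of functions, beside glycolysis, in which they did not overlap, and its median was -0.22 without saline replicate 3. Ccr1, a chemokine receptor, averaged 534 ± 93.5 CPM in seizure and 782 ± 106 CPM in saline libraries (log2 fold change -0.55, CI from -1.47 to 0.36), and Cdc42, a small GTPase of cell movement, had a log2 fold change of 0.11 (CI from -0.38 to 0.59).

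**Figure D3:**
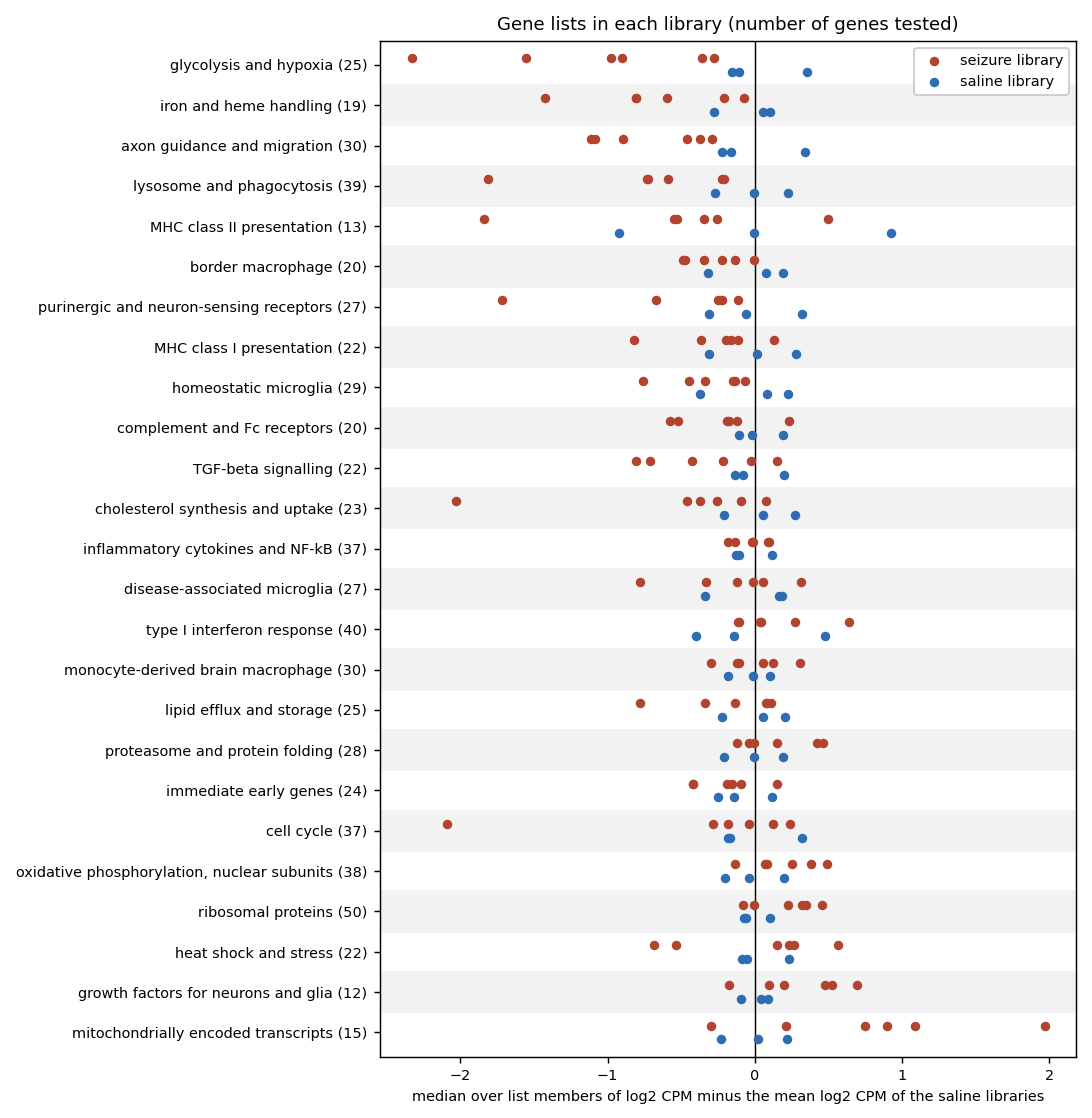
Each point is 1 library: the median over the genes of a list (number tested in parentheses) of log2 CPM minus the mean log2 CPM of the saline libraries, with seizure in red above saline in blue and lists in order of their median log2 fold change. The seizure and saline points do not overlap for glycolysis and hypoxia (-2.33 to -0.28 against -0.15 to 0.35) and for axon guidance and migration (-1.11 to -0.29 against -0.22 to 0.34), and seizure replicate 5 is the lowest point in many lists.

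The cholesterol exporters had higher means after seizures and did not pass the test. Abca1, which exports cholesterol to lipoproteins, ran from 483 to 1559 CPM (median 602) in seizure and had 380.4, 340.1 and 479.9 CPM in saline libraries (log2 fold change 0.92, SE 0.32, edgeR adjusted p = 0.331), and its partner Abcg1 averaged 2374 ± 1417 CPM in seizure and 1202 ± 425 CPM in saline libraries (log2 fold change 0.98, edgeR adjusted p = 0.338). Seizure replicate 5 held the highest value of both, and without it the log2 fold changes were 0.61 for Abca1 and 0.65 for Abcg1. Abca1 and Abcg1 were the 2 higher genes at an unadjusted p under 0.05 among 25, beside 1 lower, and the median of the list was 0.11. The 23 cholesterol synthesis and uptake genes had a median of -0.14, with 0 higher and 2 lower at an unadjusted p under 0.05.

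Signalling receptors were mixed, and growth factor genes had a median above 0. Of 27 purinergic and neuron-sensing receptor genes, 0 were higher and 7 lower at an unadjusted p under 0.05, beside 3.46% and 8.39% of all genes. The list had a median of -0.33. That median was -0.02 without saline replicate 3 and -0.60 without saline replicate 2. Entpd1, the enzyme that breaks down extracellular ATP, averaged 553 ± 260.1 CPM in seizure and 932 ± 144 CPM in saline libraries (log2 fold change -0.75, CI from -1.45 to -0.06). Of 22 TGF-beta pathway genes 3 were higher and 3 lower at an unadjusted p under 0.05. Nrros, which holds latent TGF-beta on the surface of microglia, averaged 214 ± 228 CPM in seizure and 769.6 ± 249 CPM in saline libraries (log2 fold change -1.85, edgeR adjusted p = 0.344), whereas Skil, a repressor of the pathway, averaged 1581 ± 1906 and 511 ± 136 CPM in seizure and saline libraries (log2 fold change 1.63, edgeR adjusted p = 0.328). Without seizure replicate 5 the log2 fold change of Skil was 0.72. The receptor chains Tgfbr1 and Tgfbr2 had log2 fold changes of -0.29 (CI from -0.80 to 0.22) and 0.15 (CI from -0.41 to 0.71). For 12 growth factor genes the median was 0.48, with 8 above 0, and 0 were higher and 0 lower at an unadjusted p under 0.05. Their library medians overlapped, at -0.18 to 0.69 in seizure and -0.09 to 0.09 in saline libraries. Igf1, a growth factor for neurons and oligodendrocytes, ran from 160.3 to 1071 CPM (median 299.6) in seizure MLC and had 264, 144 and 197 CPM in saline MLC (log2 fold change 1.03, CI from -1.15 to 3.21). Seizure replicate 5 lay far above the other 8 libraries, and without it the log2 fold change of Igf1 was 0.52.

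Housekeeping lists and the cell cycle list had medians near 0. The median log2 fold change was 0.23 for 50 ribosomal protein genes, whose many copies in the genome make single levels uncertain, 0.13 for 28 proteasome and folding genes, 0.26 for 22 heat shock and stress genes and 0.19 for 37 cell cycle genes. Ccnd1, the cyclin of entry into the cell cycle, averaged 73.1 ± 44.9 CPM in seizure and 218 ± 101 CPM in saline libraries (log2 fold change -1.58, edgeR adjusted p = 0.304), but Pcna, the clamp of DNA replication, had a log2 fold change of 0.27 (CI from -0.61 to 1.16). Counted once each, the 629 genes tested of the 25 lists held 34 higher (5.41%) and 66 lower (10.5%) at an unadjusted p under 0.05, beside 3.46% and 8.39% of all genes tested.

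Outside the lists, the abundant genes with the smallest p values were chosen after their values were seen, among the 447 abundant genes whose libraries did not overlap (164 higher, 283 lower). Over all genes tested, 1.23% were higher and 5.05% lower without overlap. Rhob, a small GTPase of endosomes and the cytoskeleton, ran from 87.00 to 165 CPM (median 138) in seizure MLC and had 60.3, 64.4 and 39.8 CPM in saline MLC (log2 fold change 1.27, SE 0.30, adjusted p = 0.304 in edgeR, 0.0648 in limma-voom and 0.000813 in DESeq2). With the GC-content trend removed its log2 fold change was 1.92. Kctd12, an auxiliary subunit of GABA-B receptors, ran from 131 to 372 CPM (median 253) in seizure and had 122, 97.5 and 84.3 CPM in saline libraries (log2 fold change 1.32, SE 0.32, adjusted p = 0.304 in edgeR, 0.0492 in limma-voom and 0.00183 in DESeq2). With the GC-content trend removed it was 0.68. Itgav, the integrin alpha V chain, which serves in adhesion and in activating TGF-beta, had at least 119 CPM in every seizure library and at most 81.4 CPM in every saline library. Slc15a2, a transporter of small peptides, ran from 30.7 to 54.1 CPM (median 35.7) in seizure MLC and had 6.23, 5.85 and 5.91 CPM in saline MLC. The log2 fold change of Slc15a2 was 2.73 (SE 0.93), and it was past 0.05 in limma-voom (adjusted p = 0.0483) and DESeq2 (adjusted p = 0.0391) but not in edgeR (adjusted p = 0.321).

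Lower in seizure MLC were Chst12, a sulfotransferase that makes chondroitin sulfate, with 17.2 to 90.2 CPM (median 56.5) in seizure and 194, 135 and 310.4 CPM in saline libraries (log2 fold change -1.95, SE 0.44). It was past 0.05 in limma-voom (adjusted p = 0.0257) and DESeq2 (adjusted p = 0.0156), not in edgeR (adjusted p = 0.304). Tpp1, a lysosomal peptidase, ran from 92.97 to 410.4 CPM (median 244) in seizure MLC and had 606, 554 and 789 CPM in saline MLC (log2 fold change -1.32, SE 0.35, edgeR adjusted p = 0.304). Csf3r, the receptor of the granulocyte growth factor, had at most 138 CPM in seizure and at least 160.2 CPM in saline libraries, and Siglece, an inhibitory receptor for sialic acids, at most 207 and at least 288 CPM in the same order. Among these 4 genes seizure replicate 5 held the lowest value.

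**Figure D4:**
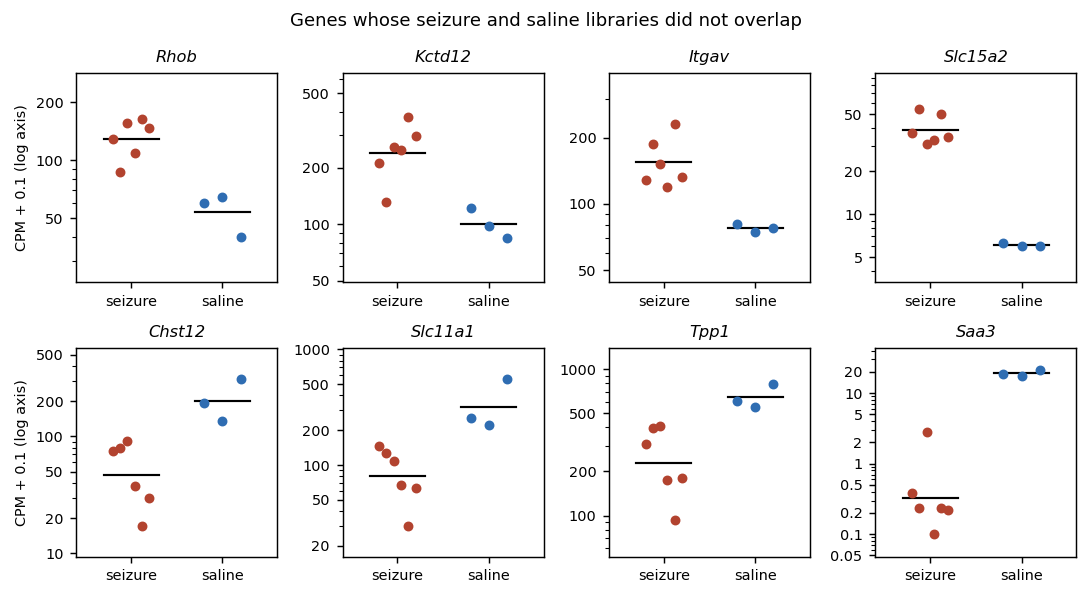
CPM plus 0.1 on a log axis of 8 genes in each library of MLC, chosen after their values were seen, seizure (6 libraries, red) left of saline (3 libraries, blue), with a bar at the geometric mean. In each gene all seizure points lie on 1 side of all saline points, and for Saa3 they lie between 0 and 2.72 CPM against 17.3 to 21.04 CPM in saline libraries.

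Saa3, the serum amyloid A protein made by macrophages in the acute phase response, was the gene that passed the threshold when 1 seizure library was left out. It had 2, 1, 92, 0, 1 and 2 counts in seizure replicates 1 to 6 and 858, 643 and 1117 counts in saline replicates 1 to 3. In CPM it ran from 0 to 2.72 CPM (median 0.135) in seizure MLC and had 18.6, 17.3 and 21.04 CPM in saline MLC. The log2 fold change was -4.96 (SE 1.06, edgeR adjusted p = 0.304), and without seizure replicate 3, the library with 92 counts, it was -7.17 with an edgeR adjusted p of 0.00569. The limma-voom adjusted p was 0.000133, and DESeq2 gave none. The same split was present in the other cells, again with batch 1 against batch 2: Saa3 was at most 0.125 CPM in MG and 0.101 CPM in NoTx seizure libraries, and at least 19.0 CPM in MG and 16.2 CPM in NoTx saline libraries. In MG its log2 fold change was -8.51, the edgeR adjusted p was 0.0375, and it was 1 of 7 genes called there (0.0371%), while in NoTx the adjusted p was 0.0691. The MLC contrast less the MG contrast was 3.55 for Saa3 (edgeR adjusted p = 0.893).

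Marco, a scavenger receptor for bacteria and particles, was at 0 counts in all 6 seizure libraries and at 88, 43 and 294 counts in saline replicates 1 to 3, so it was at least 87.8-fold lower, taking 3 counts over the whole seizure group as the floor. The edgeR adjusted p was 0.304, that of limma-voom 0.000624 and that of DESeq2 0.00138. It was also at 0 in every MG and NoTx seizure library, and had 0.777 to 2.86 CPM in MG and 1.09 CPM in both NoTx saline libraries. Tlr9, the endosomal receptor for microbial DNA, had 36 counts over the seizure group and 882 over the saline group, or 0.135 to 0.808 CPM (median 0.602) in seizure against 5.89, 4.02 and 8.7 CPM in saline libraries (log2 fold change -3.62, adjusted p = 0.304 in edgeR, 0.0383 in limma-voom and 0.0163 in DESeq2). Saa3, Marco and Tlr9 were chosen after their values were seen, and seizure libraries were the shallower ones.

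The GC content of a gene moved with its difference between the groups. Over 5927 abundant genes with a known GC content, taken from transcripts of an earlier mouse annotation, the log2 fold change in MLC correlated with GC content at a Spearman rho of -0.48, given as a description across genes that share the same 9 libraries. The corresponding value was -0.33 in MG and 0.30 in NoTx. The median log2 fold change was 0.48 in the lowest of 10 equal classes of GC content and -0.56 in the highest. The abundant genes without overlap and with an unadjusted p under 0.05 had a median GC content of 45.2% where they were higher and 54.2% where they were lower, beside 48.3% over all abundant genes. The slope of log2 CPM per 10% of GC content, taken against the mean of all 9 libraries over genes at 2 or more in average log2 CPM, ran from -1.31 to 0.39 in the seizure libraries and from 0.19 to 0.80 in the saline libraries (exact two-sided permutation p = 0.0476, and 0.0952 after adjustment over the 4 library measures). With the trend removed from each library, 0 genes were called and the smallest adjusted p was 0.347. At an unadjusted p under 0.05 there were then 579 higher and 1437 lower genes, of which 404 and 1219 were among the 653 and 1583 counted without the correction.

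**Figure D5:**
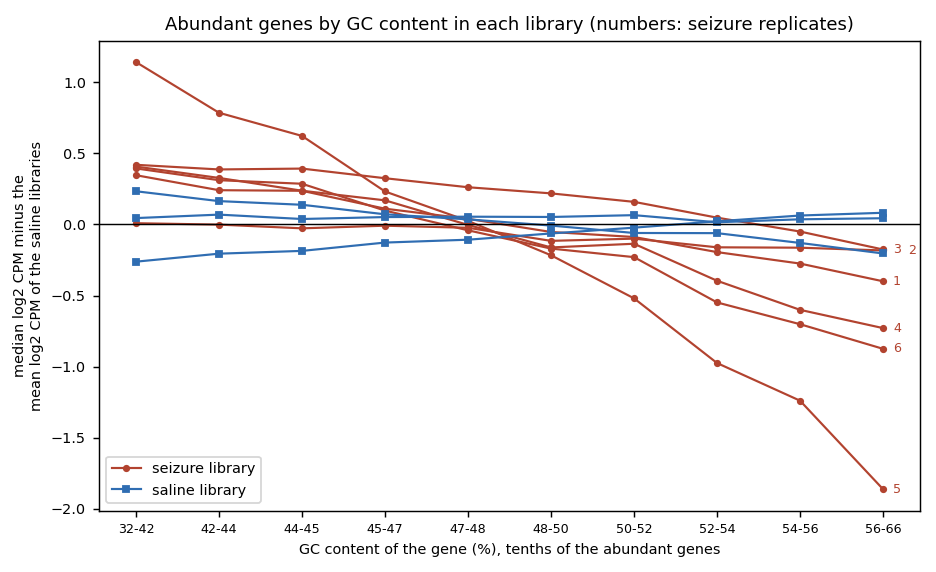
Lines give, for each library of MLC, the median log2 CPM minus the mean log2 CPM of the saline libraries (y axis) in 10 equal classes of the abundant genes ordered by GC content in percent (x axis), with seizure in red and saline in blue. Seizure replicate 5 falls most steeply, followed by replicates 6 and 4, while the saline lines stay between -0.26 and 0.23.

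Differences between the MLC contrast and that of the other cells were tested directly. Against the MG contrast, 0 of 18867 genes (0%) had an edgeR adjusted p under 0.05, with 1036 (5.49%) at an unadjusted p under 0.05, 8 (0.0424%) called by limma-voom and 143 (0.83%) by DESeq2. Among the abundant genes Cd38 had the smallest p. It ran from 55.03 to 110.1 CPM (median 89.1) in seizure MLC and had 72.5, 60.1 and 103 CPM in saline MLC, and in MG it was at most 0.186 CPM in seizure and 1.61 to 3.31 CPM in saline libraries (difference of log2 fold changes 4.34, edgeR adjusted p = 0.279). Itgal, an integrin chain of leukocytes, followed with a difference of 5.78 (edgeR adjusted p = 0.345), from log2 fold changes of -0.81 in MLC and -6.58 in MG.

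Against the NoTx contrast, 5 genes (0.0265%) had an edgeR adjusted p under 0.05, with 1529 (8.1%) at an unadjusted p under 0.05, 40 (0.212%) called by limma-voom and 208 (1.18%) by DESeq2. The 5 genes were Cd38 (difference of log2 fold changes 5.06), Mndal (5.45), 4930523C07Rik (7.90), Gm21188 (8.33) and Gm36161 (11.31). None of them was called in MLC itself. Mndal, a member of a family of interferon-inducible proteins with close copies that can share reads, ran from 148 to 348 CPM (median 218) in seizure MLC and had 166, 265 and 103 CPM in saline MLC. In NoTx it was 0.346, 0.577 and 0.252 CPM in seizure and 6.28 and 22.5 CPM in saline libraries. Cd38 was likewise at most 0.484 CPM in NoTx seizure and at 6.54 and 7.02 CPM in NoTx saline libraries, so that both genes were near 0 in the NoTx seizure libraries. The NoTx contrast had a median log2 fold change of -2.07 over the 30 monocyte-derived macrophage genes and -2.74 over the 20 border macrophage genes. In MLC these medians were 0.11 and -0.36. The 29 homeostatic microglia genes had medians of 0.24 in NoTx and -0.24 in MLC. Whether the 5 genes follow these lists was not tested. With saline MLC replicate 1 or 3, or saline NoTx replicate 2, left out, none of the 5 was called.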

How the data were processed

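RNA-seq of sorted brain cells was deposited as 1 table of 21 libraries. Its values are estimated counts per gene: the deposited table holds values that are not whole (28.2% to 44.2% of those above 0 in MLC libraries), and they were rounded. The submitters' processing notes name Trim Galore 0.6.7, cutadapt 3.4, STAR 2.7.10a, featureCounts, Subread 2.4.5 and DESeq2 1.36.0 with the build GRCm39, and no source used here says how the values became fractional.

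Counts were tested with edgeR 4.0.16 in R 4.3.3 (quasi-likelihood, TMM scaling, filterByExpr, Benjamini-Hochberg adjustment over the 18867 genes), with 6 group means fitted to all 21 libraries. Each SE was worked back from the test, as the absolute log2 fold change over the square root of F. Each CI was built from that SE with a t quantile, so both are approximate. limma-voom (limma 3.58.1) and DESeq2 1.42.0 were alternatives, as were other scaling, no filter, a replicate block, thinning, removal of a GC-content trend and leaving libraries out. Genes at 4 or more in average log2 CPM are called abundant. GC content came from GENCODE transcripts and was known for 95.3% of genes. Data were also simulated for this comparison, with 200 changed genes, all at 4 or more in log2 of their mean CPM. Of changes of 2-fold 1.49% were called, of those of 4-fold 37.3% and of those of 8-fold 66.7%, with 3 false calls. The counts were drawn from the kind of model that edgeR fits, without a GC-content trend or a library that stands apart. The shares therefore do not cover genes of lower level or those features of the real libraries.

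Genes were to be named by size among called genes (there were 0), and otherwise by up to 4 members of highest level per list. A few identity genes were to be named in any case, as were the abundant genes with the smallest p values of each interaction. Sall1, Rbfox3 and Ly6c2 and the genes said to be chosen after their values were seen fall outside this rule. The comparison, the genes and the lists were chosen with earlier results of these data known. A few list members that the rule would name are not reported here.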

Additional observations from a re-analysis of the deposited data

Results flagged for a closer look

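Among the 6 seizure libraries of MLC a value was listed where the highest or lowest library stood apart from the others by Dixon's test. For normally distributed values chance meets it in about 1 in 20 groups. Genes were tested in CPM without a log, where that rate need not hold, and every gene listed was flagged at its highest library. Replicate 3 stood apart for its total of 37490000 counts. Replicate 5 was the lowest for the library medians of cholesterol synthesis (-2.03 on the log2 scale, from the saline mean), lysosome (-1.81), cell cycle (-2.09), purinergic receptors (-1.72) and brain macrophage markers (-1.11). Replicate 6 was the highest for neuronal markers (2.44) and for blood monocyte and dendritic cell markers (-0.18).

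Replicate 5 was the highest for Abca1 (1559 CPM), Abcg1 (5166 CPM), Canx (23750 CPM), Cybb (4961 CPM), Gm21188 (185.9 CPM), Hk2 (560.4 CPM), Igf1 (1071 CPM) and Skil (5415 CPM). Replicate 2 was the highest for Cx3cr1 (2968 CPM), Csf3r (137.5 CPM) and Zfp36 (202.4 CPM). Replicate 3 was the highest for C3ar1 (2139 CPM), Itgal (79.64 CPM) and Saa3 (2.717 CPM), replicate 4 for Ly6c2 (1.553 CPM) and replicate 6 for Il6 (3.241 CPM).

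The seizure contrast in MLC differed from that in NoTx, by edgeR's interaction test, for Cd38 (5.06 on the log2 scale), Mndal (5.45), 4930523C07Rik (7.90), Gm21188 (8.33) and Gm36161 (11.31), each higher in MLC relative to NoTx.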

How the results depend on the processing

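In MLC, 0 higher and 0 lower genes by edgeR became 60 and 70 in DESeq2, 6 and 90 in limma-voom, and 2 and 4 without a filter on low counts. With both 11b libraries left out 0 and 1 were called, and with single libraries left out 0 to 0 higher and 0 to 1 lower, the 1 being Saa3 without seizure replicate 3. At an unadjusted p under 0.05, leaving out single libraries gave 348 to 804 higher and 774 to 1916 lower genes, with both lowest counts without saline replicate 3. The 9 MLC libraries fitted alone gave 492 and 733, limma-voom 1121 and 2378, and no filter 1141 and 2384.

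The MLC contrast less that of MG gave 0 genes by edgeR, 143 by DESeq2, 8 by limma-voom and 0 to 0 with single libraries left out. Less that of NoTx, 5 genes became 208 in DESeq2, 40 in limma-voom, 9 without the filter, 3 without the 11b libraries, 0 with those summed into their partners, 0 after thinning and 0 to 9 with single libraries left out. It was 9 without seizure NoTx replicate 3, and 0 without saline MLC replicate 1 or 3 or saline NoTx replicate 2.

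With the replicate number as a block, 0 higher and 0 lower genes were called in MLC, and 0 in the contrast less NoTx. At an unadjusted p under 0.05 the block gave 164 higher and 774 lower genes. Same-numbered libraries deviated with correlations of 0.03, -0.25 and -0.14, and differently numbered ones with -0.18 to 0.32. With 3 libraries per group these values cannot settle whether samples were paired, and the labels give no pairing beyond the number. The 76 single genes named had 1441 values under other settings, of which 20 passed 0.05, 16 of them in DESeq2 or limma-voom. Another 65 values, in 25 genes, had the opposite sign, and 0 of those passed 0.05; the cause was not tested. Depth limits the low genes, since seizure libraries held fewer counts.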
